A study of Mus musculus with 3 samples.

Results

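Endothelial cells that lacked Scl were compared with wild type endothelial cells by RNA sequencing, 1 library against 1, across 10874 genes. A gene was included where its FPKM (fragments per kilobase of transcript, scaled to the mapped fragments of the library) was at least 1 in either library and its exons summed to 300 nt or more. By that rule 10874 of 23451 measured genes were kept, of 22672 with exons long enough, beside 11001 genes when the third library of the series was also considered. Scl, whose current symbol is Tal1, is a basic helix-loop-helix transcription factor that binds E-box sequences as a dimer and forms complexes with GATA factors, LMO2 and LDB1. It is required for blood formation, and in mesoderm and endothelium it is known to favour the hemogenic fate over heart fates. The account here is about what lies outside the blood, endothelial and heart muscle marker genes: signalling, transcription factors, matrix, junctions, metabolism, translation, chromatin, and the relation of the ratios to transcript length.

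Both groups were mouse embryonic stem (ES) cells cultured with serum and then grown as embryoid bodies, floating aggregates in which mesoderm and its derivatives form. Endothelial cells were sorted at day 4.75 for Tie2 and CD31 on their surface and against CD41. The WT group came from wild type ES cells and the SclKO group from ES cells with a knockout of Scl. These are different ES cell lines, the labels give no clone number, and total RNA of each sorted population gave 1 library read at 50 nt. A library labelled Gata12KO, made in the same way from ES cells without Gata1 and Gata2, is used only for its values.

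With 1 library per group, every difference describes these libraries, there is no replicate check and no p-value is given. The deposited confidence bounds hold no spread between replicates. They followed counting error for most genes checked and were wider for some others, such as Stat3 and H2ac18. Ratios are log2((SclKO + 1)/(WT + 1)) of FPKM, on which changes at low levels appear smaller than they are. A gene was called higher or lower in SclKO when this ratio was at least 2-fold and the bounds of the libraries did not overlap. At the limits of the gene set, Mapk13 was just outside with 0.9999 FPKM in its higher library, and the lowest value inside was 1.0003 FPKM. By length, H4c1 with 312 nt was the shortest gene inside and Rab26os with 295 nt the longest outside.

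Depth, read from the bounds, was 31.6M fragments in WT and 28.3M in SclKO. Transcripts of the sorting markers were present in both: Tek, the gene of Tie2, had 62.9 FPKM in WT against 42.4 in SclKO, and Pecam1, the gene of CD31, 48.3 and 50.4. Itga2b, the gene of CD41, had 22.8 and 0.333. Of 24 pan-endothelial markers tested, 15 were called lower and 0 higher, and their summed FPKM was 1057 in WT and 486 in SclKO. All 16 blood markers tested were called lower, with sums of 244 and 4.16, and Hbb-y, Cd52, Tyrobp and Ptprc were among those listed at 0 in SclKO. For 16 mesenchyme and smooth muscle markers the sum was 86.3 in WT and 144 in SclKO, with 3 of 12 tested called higher, none at 0, and Acta2 (42.1 and 55.1 FPKM) the most abundant. Cardiomyocyte markers summed to 26.9 and 45.1, with Myl2 and Nppb listed at 0 in both, and neuroectoderm markers to 4.94 and 5.70. In sorted bulk samples, fewer cells of a type and less RNA per cell cannot be told apart, and the part of these marker differences in the results below was not tested. The Y-linked genes Ddx3y (1.25 and 8.17 FPKM), Eif2s3y (7.26 and 34.3) and Uty (0.954 and 8.16) were all higher in SclKO. In the Gata12KO library they had 11.8, 39.4 and 10.9 FPKM, so the WT library had the lowest value of each. With different ES cell lines on each side, Scl and the line cannot be told apart. A listed 0 was not read as absence, since 75 of 79 cytosolic ribosomal protein genes were listed at 0 in both libraries.

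Over the 10874 genes, 235 were called higher and 468 lower, 703 in all. These are 2.16%, 4.30% and 6.46% of genes, and the counts in every list below are to be read against these shares. The median log2 ratio was -0.04, with quartiles of -0.33 and 0.24. Lower genes made up 66.6% of the calls. Summed over entries of 300 nt or more, FPKM was 295009 in WT and 266598 in SclKO, and over all entries 886209 and 966266. With SclKO rescaled to the WT sum over entries of 300 nt or more, lower genes made up 53.1% of the calls. That rescaling multiplies SclKO by 1.11, a log2 shift of 0.15 that the pseudocount makes smaller at low levels. List medians a little below 0 can turn with it, as that of glycolysis from -0.04 to 0.07. Tal1 itself, at chr4:114732132-114744360 of mm9 with 4 exons, had 51.0 FPKM in the WT library (bounds 49.7 to 52.3), 1.59 in SclKO (1.35 to 1.83) and 38.7 in the library labelled Gata12KO. The values cover the whole transcript. Among its neighbours, Stil (7.86 FPKM in WT against 6.38 in SclKO), Cmpk1 (20.1 and 11.4) and Pdzk1ip1 (21.8 and 15.7) lay between the limits. Farther along, Cyp4b1 (6.37 and 1.36) and Mknk1 (11.8 and 3.91) were called lower.

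Promoter windows are shown for 4 called genes, chosen because they hold both of the motifs named here. Scl binds E-boxes, and its complexes in blood cells are known at sites where an E-box lies near a GATA motif. The windows are RefSeq windows on GRCm38.p6, another build than the mm9 of the deposited files, each with 250 bases before and 50 after a start, 5′ to 3′ on the strand of the gene. Capitals mark the GATA motif AGATAA, which is TTATCT on the other strand, and the E-boxes: CAGCTG, which reads the same on both strands, then CAGATG, which is CATCTG on the other strand, and then CAGGTG, which is CACCTG there. Tal1, Plcg2 and Slc18a2 were called lower and H3c3 higher.
Tal1, chr4:115056176-115056475, + strand: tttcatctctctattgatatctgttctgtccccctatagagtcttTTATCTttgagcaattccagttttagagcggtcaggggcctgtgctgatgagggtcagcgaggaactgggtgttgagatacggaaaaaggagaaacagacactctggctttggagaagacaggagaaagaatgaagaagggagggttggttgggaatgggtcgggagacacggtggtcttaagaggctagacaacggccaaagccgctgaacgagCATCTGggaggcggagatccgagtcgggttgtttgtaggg
Plcg2, chr8:117498025-117498324, + strand: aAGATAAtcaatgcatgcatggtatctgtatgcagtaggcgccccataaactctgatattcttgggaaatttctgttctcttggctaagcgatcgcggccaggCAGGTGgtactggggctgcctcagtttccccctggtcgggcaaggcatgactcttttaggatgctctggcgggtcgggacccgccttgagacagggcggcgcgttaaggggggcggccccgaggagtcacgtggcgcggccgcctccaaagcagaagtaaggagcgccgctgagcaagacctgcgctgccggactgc
Slc18a2, chr19:59260628-59260927, + strand: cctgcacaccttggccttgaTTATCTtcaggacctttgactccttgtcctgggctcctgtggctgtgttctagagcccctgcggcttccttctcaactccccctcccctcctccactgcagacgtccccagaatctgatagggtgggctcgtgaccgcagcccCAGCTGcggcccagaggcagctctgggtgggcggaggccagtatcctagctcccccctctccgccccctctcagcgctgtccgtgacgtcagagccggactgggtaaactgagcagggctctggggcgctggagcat
H3c3, chr13:23745472-23745771, - strand: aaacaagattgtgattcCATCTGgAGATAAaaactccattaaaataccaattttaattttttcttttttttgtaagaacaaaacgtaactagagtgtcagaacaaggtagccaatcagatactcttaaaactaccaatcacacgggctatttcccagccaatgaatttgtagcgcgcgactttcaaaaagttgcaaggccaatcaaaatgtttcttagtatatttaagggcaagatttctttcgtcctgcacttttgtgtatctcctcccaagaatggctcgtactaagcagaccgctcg
Plcg2, a phospholipase of immune and endothelial receptors, had 14.9 FPKM in WT against 1.17 in SclKO. Slc18a2, the vesicular monoamine transporter, had 23.1 and 3.18. H3c3, a histone H3 gene, had 45.2 and 131. A match is a description of these letters and not evidence of binding.

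Over genes with a window, AGATAA on either strand was in 39 of 344 lower genes (11.3%), 14 of 169 higher genes (8.28%), 497 of 8639 genes of the comparison (5.75%) and 11.4% of all 27025 promoters in the table. AGATAA with any of the E-boxes was in 21 of 344 lower genes (6.10%), 5 of 169 higher genes (2.96%) and 183 of 8639 genes of the comparison (2.12%). The ETS motif CCGGAAGT was in 9 of the 344 lower windows (2.62%), 0 of the 169 higher ones and 782 of all 8639 (9.05%). Among the E-boxes, CAGCTG was in 21.2% of lower, 18.9% of higher and 14.2% of all windows of the comparison. For CAGATG the shares were 13.4%, 15.4% and 10.6%, and for CAGGTG 19.8%, 12.4% and 15.5%. The GC box GGGCGG was in 56.7% of lower, 62.1% of higher and 68.1% of all windows of the comparison. Over all promoters in the table the shares were 16.1% for CAGCTG, 17.2% for CAGATG, 4.0% for the ETS motif and 35.9% for the GC box. No test was made of these shares.

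Outside the marker lists, the lowest ratio was that of Grb10. Grb10, an imprinted adaptor that restrains insulin and IGF receptors, had 46.1 FPKM in the WT library (bounds 45.0 to 47.2), 0.279 in SclKO (0.186 to 0.386) and 69.6 in the library labelled Gata12KO, and its WT level was 165-fold that of SclKO. Igf1, the growth factor, had 22.3 FPKM in the WT library (20.8 to 23.9), 0.219 in SclKO (0.151 to 0.317) and 16.5 in the Gata12KO library. Gap43, a protein of growing axon tips, had 81.8 (78.8 to 84.9), 3.24 (2.59 to 3.88) and 66.7. Grb10, Igf1 and Gap43 were thus low in the SclKO library and not in the library labelled Gata12KO. Cavin1, a coat protein of caveolae, had 41.8 FPKM in WT against 1.29 in SclKO. Ucn, the peptide urocortin, had 20.2 and 0.318, and Tgm2, a protein crosslinking enzyme, 37.1 and 1.49. The others among the lowest 12 included Hba-a2 (15.4 and listed at 0), an adult type globin, and Skap1 (22.7 and 0.694), an adaptor of T cell adhesion. Ltc4s (15.4 and 0.182), the leukotriene C4 synthase, Myct1 (23.6 and 0.891), Ldb2 (34.0 and 1.78), a cofactor of LIM domain proteins, and F10 (11.7 and 0.215), coagulation factor X, completed them. Hba-a2 (0.0005 FPKM), Skap1 (7.21), Myct1 (8.31) and F10 (3.77) were well below WT in the Gata12KO library too. Cavin1 (42.0), Ucn (39.9), Tgm2 (34.1), Ltc4s (16.3) and Ldb2 (23.3) were nearer to WT than to SclKO there, or above WT.

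The highest ratio was that of Hsd11b2. Hsd11b2, which inactivates glucocorticoids, had 10.4 FPKM in the WT library (9.51 to 11.3) and 75.9 in SclKO (73.3 to 78.4). Cdx2, a caudal homeobox factor, had 1.68 (1.35 to 2.01) and 16.7 (15.6 to 17.8). Cdh11, a cadherin of mesenchyme, had 4.46 (4.09 to 4.84) and 25.9 (25 to 26.9). In the Gata12KO library these genes had 13.3, 5.71 and 2.84 FPKM, below SclKO in each case, though Hsd11b2 and Cdx2 were above WT. Nnat, an imprinted membrane protein, had 19.4 and 106, Irx3, an Iroquois homeobox factor, 2.71 and 16.9, and Peg3, an imprinted zinc-finger protein, 48.1 and 191. Smpd3, a neutral sphingomyelinase, had 0.402 and 5.16, and Mmp9, a gelatin-degrading matrix protease, 0.503 and 5.36. Eno1 (25.5 and 174), a glycolytic enzyme, has near-identical copies and its split of reads is uncertain. The Y-linked Uty, Eif2s3y and Ddx3y completed the 12 highest. Eno1 (131 FPKM), Nnat (64.9), Peg3 (104) and the Y-linked genes were above WT in the Gata12KO library too. Irx3 (2.24) and Smpd3 (0.175) were below WT there, and Mmp9 (0.568) was close to it.

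**Figure D1:**
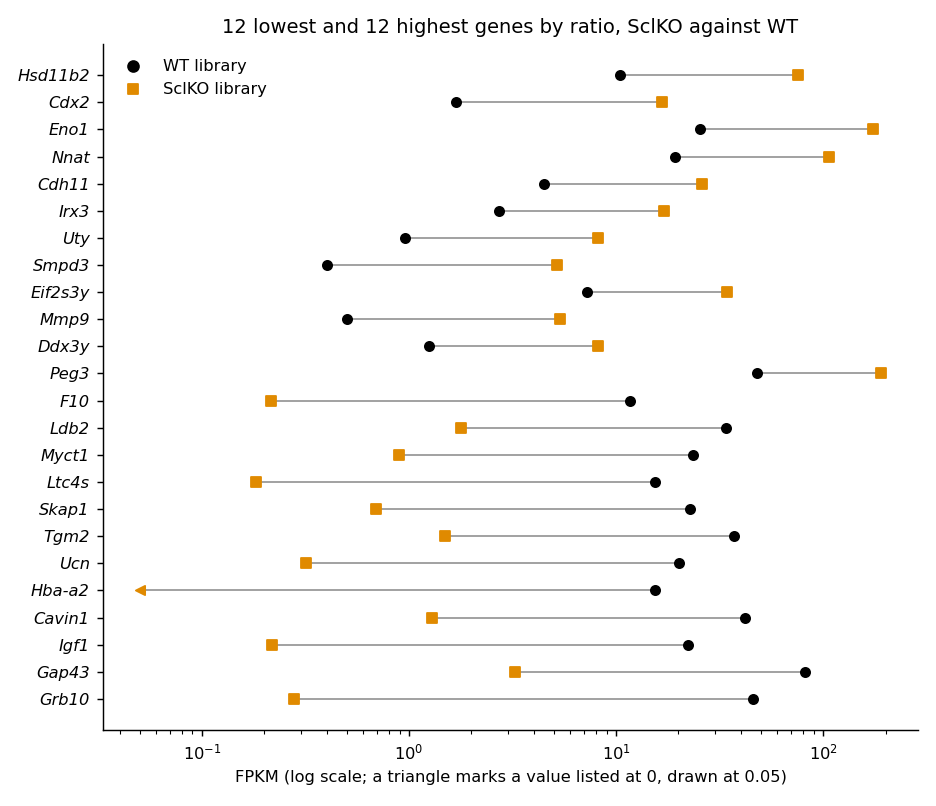
FPKM on a log axis in the WT library (black circles) and the SclKO library (orange squares) for the 12 genes with the highest and the 12 with the lowest ratio outside the marker lists. Hba-a2 is listed at 0 in SclKO and drawn at the left edge as a triangle, and Grb10 spans 46.1 to 0.279 FPKM.

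Function was described with 65 lists of genes, of which 64 had a member tested. In total 1533 tested genes stood in at least 1 list, and 105 of them were called higher and 92 lower. In 22 lists more genes were higher than lower, in 23 more were lower than higher, and 14 lists with 395 tested members held no call. A list is described by its counts and its median log2 ratio, to be set beside the median of -0.04 and the shares of 2.16% higher and 4.30% lower over all genes. Members enter when either library reaches 1 FPKM, which keeps a low gene only through the library where it is higher. For some of the lists where members were left out, the median over all measured members is given as well.

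**Figure D2:**
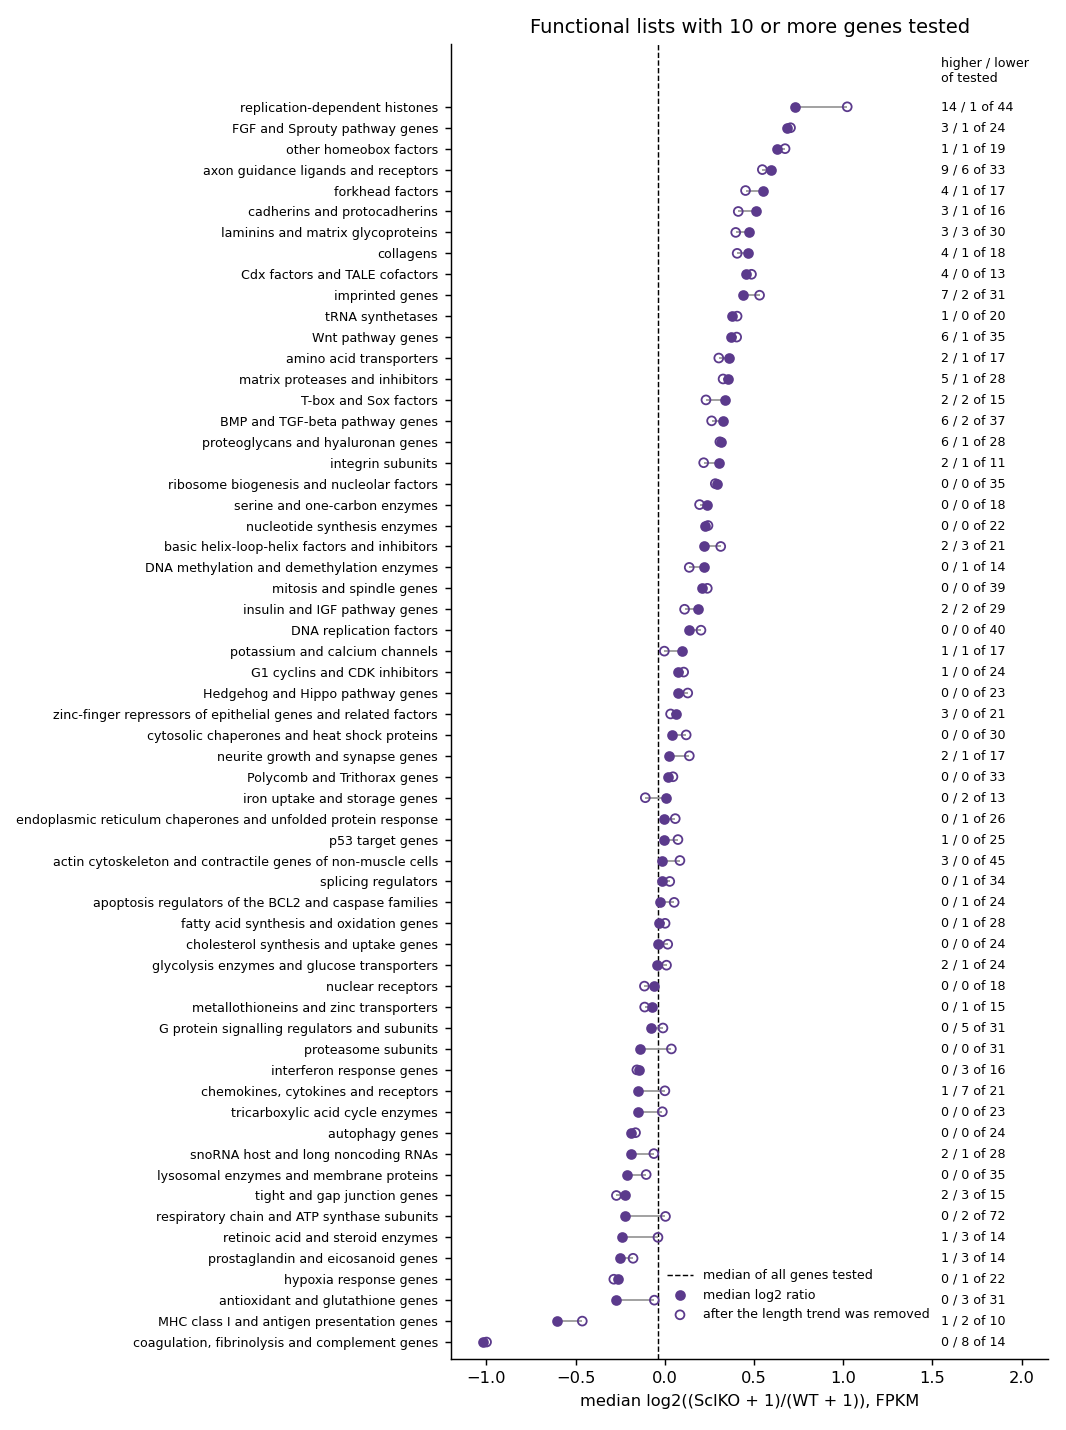
Median log2 ratio of SclKO over WT for functional lists with 10 or more genes tested, 1 list not shown (filled points), the same after the trend with transcript length was removed (open points), and the counts called higher and lower of those tested at the right. Replication-dependent histones stand at the top with 0.73 and coagulation, fibrinolysis and complement genes at the bottom with -1.02, and the dashed line is the median of all genes.

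Called genes of the Wnt, BMP and FGF pathways were more often higher than lower in SclKO. Of 35 Wnt pathway genes tested, 6 were called higher and 1 lower, with a median of 0.37, and of 0.10 over all 59 measured. Axin2, a feedback inhibitor and common Wnt target, had 1.76 FPKM in the WT library (1.53 to 2.00) and 8.50 in SclKO (7.96 to 9.04). The receptors Fzd2 (6.53 and 20.1), Fzd10 (2.62 and 9) and Ror2 (0.961 and 4.78), the nuclear effector Lef1 (3.38 and 9.10) and the secreted inhibitor Dkk1 (4.03 and 10.7) were higher too. The lower gene was Sfrp2, a secreted Wnt binding protein (5.68 and 1.28). Higher genes thus covered receptors, a nuclear effector and inhibitors, and no Wnt ligand was called.

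Among 37 BMP and TGF-beta pathway genes tested, 6 were higher and 2 lower, with a median of 0.32, and of 0.14 over all 53 measured. The ligand Bmp5 had 4.2 FPKM in WT against 16.7 in SclKO, Bmp7 0.888 and 4.58, and Bmp4 9.44 and 22.7, whereas the ligand Bmp6 had 1.93 and 0.240. Ligands of the same family therefore stood on both sides. The ligand Tgfb2 (5.08 and 11.3), the co-receptor Tgfbr3 (8.09 and 17.2) and the secreted, TGF-beta induced Tgfbi (8.48 and 20.2) were higher, and the signalling receptor Tgfbr2 (9.16 and 3.81) was lower. After the length trend was removed 4 of the 6 higher calls were kept, with Tgfb2 and Tgfbr3 falling short of the 2-fold limit. In the FGF list of 24 tested genes the median was 0.68, with 3 called higher and 1 lower. It was 0.13 over all 41 measured and 0.34 with a pseudocount of 5 FPKM. Fgf15 had 8.00 FPKM in WT against 31.2 in SclKO, the receptor Fgfr1 23.9 and 57.0, and Spred1, an inhibitor of the pathway, 3.21 and 8.43. Fgf10, a mesenchymal growth factor, was lower with 8.49 FPKM in the WT library (7.99 to 8.98) and 0.913 in SclKO (0.742 to 1.09).

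Of 29 insulin and IGF pathway genes tested, Grb10 and Igf1 were the lower genes. The IGF binding proteins Igfbp5 (10.5 and 26.5 FPKM) and Igfbp7 (0.428 and 3.63) were the higher ones, and the median was 0.18. The ligand Igf2 had 785 and 899 FPKM and lay between the limits. None of 23 Hedgehog and Hippo pathway genes was called, with a median of 0.07. The most abundant of them in WT, Tead2, a Hippo pathway transcription factor, and Amot, a scaffold, had 84.1 and 52.3 FPKM there and 110 and 80.7 in SclKO.

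Axon guidance genes, which also steer vessels, were called in both directions, 9 higher and 6 lower of 33 tested, with a median of 0.60, and of 0.13 over all 61 measured. The called ephrin receptors and B-type ephrins were higher: Epha4 had 4.68 FPKM in WT against 18 in SclKO, Ephb3 1.05 and 4.31, Ephb2 2.03 and 5.51, Efnb1 2.71 and 8.99, and Efnb3 0.783 and 3.36. Efna1, an A-type ephrin, was lower with 48.5 and 14.2. Netrin receptors Unc5b (6.33 and 21.8) and Unc5a (0.342 and 1.79) were higher, as was the ligand Slit3 (3.01 and 7.61), whereas the endothelial receptor Robo4 (3.27 and 0.557) was lower. Transmembrane semaphorins of class 6, Sema6a (10.5 and 2.66), Sema6b (4.26 and 1.63) and Sema6d (7.81 and 2.13), and the semaphorin receptor Plxnc1 (12.2 and 1.79) were lower, and Sema5a (1.05 and 5.21) was higher. In the related list of neurite growth and synapse genes, Basp1, a growth cone protein often named with Gap43, had 42.0 and 89.7, opposite to Gap43, and the microtubule protein Map1b had 9.33 and 24.1.

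**Figure D3:**
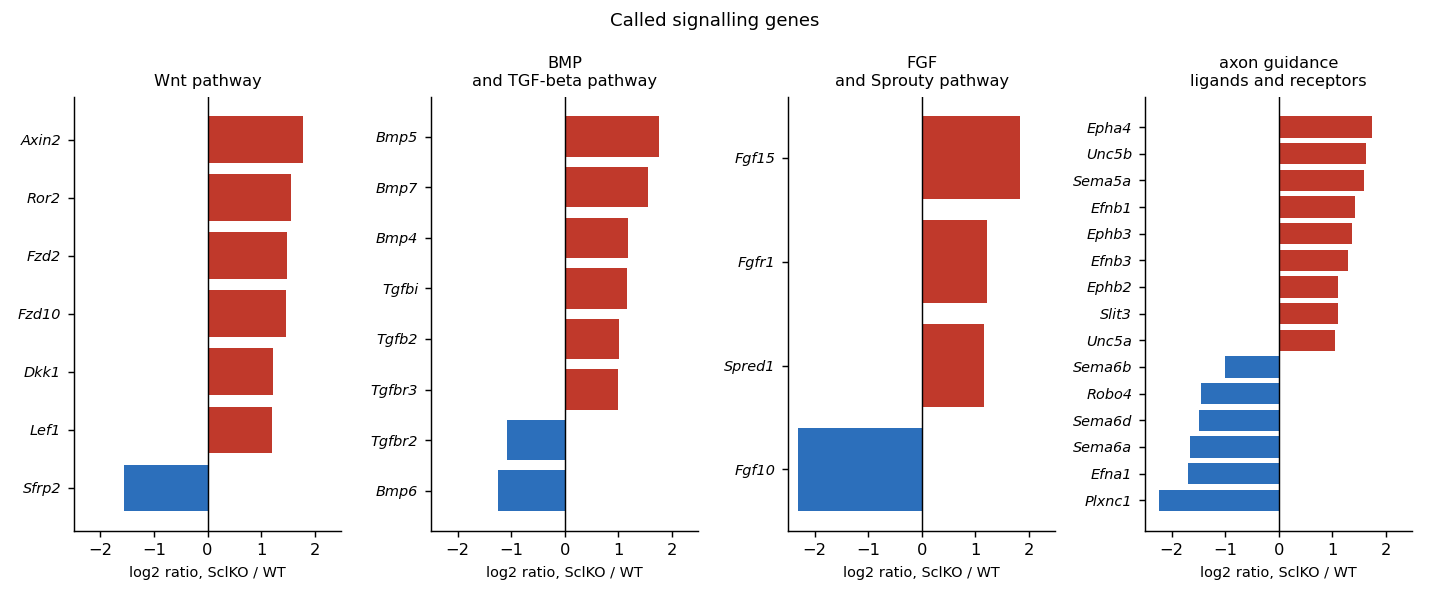
Log2 ratio of SclKO over WT for every called member of the Wnt, BMP and TGF-beta, FGF and axon guidance lists (red, higher; blue, lower). The bars run from Fgf10 at -2.31 to Fgf15 at 1.84, and the axon guidance list holds 9 higher and 6 lower genes.

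Homeobox factors divided by family. In Hox clusters A and B, 4 of 9 tested genes were lower and 0 higher, with a median of -0.94. It was -0.31 over all 21 measured, and -0.40 with a pseudocount of 5 FPKM. All 4 lay in cluster B: Hoxb5 had 20.5 FPKM in the WT library (19.2 to 21.7) and 2.23 in SclKO (1.80 to 2.66), Hoxb2 10.7 and 3.39, Hoxb4 8.61 and 2.76, and Hoxb6 9.16 and 3.27. The cluster B genes Hoxb3 (3.79 and 1.71) and Hoxb8 (3.09 and 1.14) lay between the limits. Of 5 tested genes in clusters C and D, Hoxd1 (1.60 and 0.234) was lower. Caudal and TALE factors, some of which regulate or bind with Hox proteins, had 4 of 13 higher and 0 lower. The median was 0.46, and 0.14 over all 20 measured. Beside Cdx2 and Irx3 these were Irx5 (0.385 and 2.34) and Meis2 (3.67 and 9.20), while Meis1 (5.96 and 4.28) was not called. Cdx2, named in textbooks as an activator of Hox genes, and the Hoxb genes thus stood on opposite sides in these libraries. In other homeobox factors, Hhex, a factor of early endothelium and blood, had 37.9 and 8.67, and Six2 0.247 and 2.60.

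Forkhead factors had 4 of 17 tested genes higher and 1 lower, with a median of 0.55, and of 0.08 over all 32 measured. Foxf1, a factor of lateral plate tissue and also on the mesenchyme marker list, had 0.722 FPKM in WT against 9.46 in SclKO, and Foxh1, a partner of SMAD proteins in Nodal signalling, 3.34 and 15.3. Foxo4 had 18.7 and 47.2 and Foxc1 1.65 and 5.07, while Foxp2 was lower with 1.30 and 0.124. Among basic helix-loop-helix factors, to which Scl belongs, 2 of 21 were higher and 3 lower, with a median of 0.22, and of 0.00 over all 40 measured. The close Scl relatives Lyl1 (21.3 and 1.35) and Tal2 (1.62 and listed at 0) and the somite factor Tcf15 (2.42 and 0.0966) were lower. Hand1, a factor of lateral mesoderm and heart, had 72.2 and 209, and Twist2 11.5 and 24.5. For Sox factors, Sox9 (0.375 and 2.68) and Sox4 (1.68 and 4.61) were higher and the endothelial Sox7 (48.3 and 21.9) and Sox18 (14.4 and 5.60) lower. Snai2 (11.3 and 31.8), a repressor of epithelial genes, Prdm6 (13.1 and 40.8), a repressor in vascular smooth muscle, and Sall3 (2.07 and 8.48) were the 3 higher genes of 21 zinc-finger factors, with 0 lower. None of 18 nuclear receptors tested was called.

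Of 14 tested retinoic acid and steroid enzymes, 3 were lower, Hsd11b2 was higher and 10 lay between. The median was -0.24, and -0.05 over all 29 measured. Without the length trend the median of the tested genes was -0.04. The lower genes were Cyp26a1 (18 and 5.45 FPKM) and Cyp26b1 (1.53 and 0.204), which degrade retinoic acid, and Dhrs3 (15.0 and 3.00), which turns retinal back to retinol. Every one of the 3 removes retinoic acid or its precursor, and each is known as a gene induced by retinoic acid. Whether retinoic acid levels or signalling differed was not tested.

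Called genes of 3 of the 4 matrix lists were more often higher than lower. Proteoglycan and hyaluronan genes had 6 of 28 higher and 1 lower, with a median of 0.32, and of 0.13 over all 43 measured. Sulf1 (3.13 and 13.7 FPKM) and Sulf2 (16.7 and 40.9), which remove sulfate from heparan sulfate, the cell surface proteoglycans Gpc3 (27.4 and 75.6) and Gpc1 (6.42 and 15.3), the matrix proteoglycan Vcan (13.3 and 36.4) and the hyaluronan synthase Has2 (12.7 and 31.2) were higher. Hapln1, which links hyaluronan to proteoglycans, was lower with 64.0 and 21. The list of matrix proteases and inhibitors also held other genes, such as Loxl2 and Serpinh1. In it 5 of 28 tested genes were higher and 1 lower, with a median of 0.35, and of 0.11 over all 54 measured. Beside Mmp9, higher genes were Adamts2 (2.30 and 7.33), a procollagen protease, Adamts9 (2.94 and 8.42), the lysyl oxidase Loxl2 (7.09 and 17.9) and the collagen chaperone Serpinh1 (162 and 335). Adam15 was lower with 17.3 and 6.80.

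Collagen genes had 4 of 18 higher and 1 lower, with a median of 0.46, and of 0.04 over all 34 measured. The fibrillar Col3a1 had 1.39 FPKM in WT against 8.06 in SclKO, the basement membrane chain Col4a6 2.47 and 7.34, Col9a2 1.07 and 3.75, and Col13a1 1.14 and 3.83. Col18a1, the vascular basement membrane collagen that holds endostatin, was the lower one with 122 (119 to 124) and 37.3 (36.0 to 38.5), and it was far more abundant than the 4 higher ones in WT. Laminins and matrix glycoproteins had 3 higher and 3 lower of 30, with a median of 0.47, and of 0.05 over all 47 measured. Fbln1 (9.37 and 27.2), Tnc (1.15 and 4.12) and Ecm1 (3.64 and 9.67) were higher, and Sparcl1 (7.91 and 1.10), Fbn1 (34.5 and 14.2) and the endothelial Mmrn2 (14.1 and 5.83) lower. Col3a1 is also on the mesenchyme marker list, whose summed level was larger in SclKO as well.

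Of 16 cadherins and protocadherins, Cdh11, Pcdh7 (3.67 and 9.15 FPKM) and Cdh3 (2.35 and 5.90) were higher, and Cdh5, the endothelial cadherin, was lower with 116 and 42.9. In tight and gap junctions, Esam had 88.0 (85.4 to 90.6) and 14.9 (13.7 to 16.0), Cldn5 10.5 and 1.89, and F11r 29.0 and 8.93. All of these are adhesion proteins found at endothelial contacts, as is Pecam1, which was not called. The tight junction gene Cldn11 (0.488 and 4.94) and the gap junction gene Gja1 (3.98 and 10.4) were higher. For integrins, Itga8 (1.81 and 5.41) and Itgb5 (4.31 and 9.98) were higher and Itga2b lower, of 11 tested, and Itgb5 was lost with the length trend.

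Actin genes of non-muscle cells had 3 of 45 higher and 0 lower, with a median of -0.02. They were Rdx, which anchors actin to the membrane (116 and 261 FPKM), the myosin Myh10 (42.3 and 92.7) and the tropomyosin Tpm1 (123 and 261). Actb had 573 and 1062 FPKM and lay between the limits with a log2 ratio of 0.89. G protein genes had 5 of 31 lower and 0 higher, with a median of -0.08, and of -0.04 over all 48 measured. They were the sphingosine 1-phosphate receptor S1pr1 (5.28 and 0.824), the lysophosphatidic acid receptor Lpar6 (27.0 and 11.2), the signal terminators Rgs2 (3.51 and 0.415) and Rgs10 (12.6 and 3.84) and the subunit Gnaz (3.07 and 0.680).

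Coagulation, fibrinolysis and complement genes had the lowest median of the lists in the plot, -1.02, with 8 of 14 tested lower and 0 higher. Of the 14, 9 had at least 1 FPKM in both libraries, and over all 46 measured the median was -0.02. They held pro- and anticoagulant genes alike. F10 had 11.7 FPKM in the WT library (10.5 to 12.9), 0.215 in SclKO (0.1 to 0.358) and 3.77 in the Gata12KO library. The thrombin receptor F2rl3 had 3.08 and 0.249. On the anticoagulant side, thrombomodulin (Thbd) had 8.54 and 0.984, the protein C receptor (Procr) 3.24 and 1.08, and the tissue factor inhibitor Tfpi 58.1 and 28.2. Complement inhibitors were lower as well: Cd55 had 3.81 and 0.592, Cd59a 21.4 and 9.64, and Serping1 7.39 and 2.64. After the length trend was removed 7 of the 14 were lower and 1 higher, and Cd59a and Procr were no longer called. Blood and endothelial markers, which these genes accompany in many cells, were lower in the same library.

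Chemokine, cytokine and receptor genes had 7 of 21 lower and 1 higher, with a median of -0.15, and of -0.02 over all 52 measured. The lower genes included receptors of blood growth factors and cytokines, Epor for erythropoietin (4.41 and 1.04 FPKM), Il4ra (4.63 and 0.643), Il2rg (2.39 and 0.322) and Csf2rb (1.46 and 0.0132), and the ligands Flt3l (9.63 and 1.45) and Il15 (2.00 and 0.230). Ackr3, a chemokine scavenging receptor, was higher with 5.26 and 15.9. With only genes of at least 5 FPKM the median of this list turned to 0.33. Eicosanoid genes had 3 of 14 lower and 1 higher, with a median of -0.25, and of -0.07 over all 29 measured. Ltc4s and Alox5ap (21.8 and 3.40), of leukotriene synthesis, and Ptgs1 (2.16 and 0.252), of prostanoid synthesis, were lower, and the prostacyclin synthase Ptgis (2.51 and 10.4) was higher. Of 10 MHC class I and antigen presentation genes tested, B2m (119 and 48.0) and H2-K1 (16.6 and 7.61) were lower and H2-T22 (0.0748 and 1.20) higher, with near-identical copies in this family. Neither lower call held after the length trend was removed. Interferon response genes had 3 of 16 lower: Bst2 (16.0 and 5.61), Ifi35 (5.47 and 1.74) and Isg20 (1.21 and 0.102), the last of which was lost with the length trend.

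Energy metabolism held few calls. Of 24 glycolysis genes, Hk2 (4.29 and 11 FPKM) and Eno1 were higher and Pgk1 (906 and 405) lower, with a median of -0.04. Other abundant members, Ldha (872 and 938), Pkm (473 and 595) and the glucose transporter Slc2a1 (86.3 and 89.9), differed little. Among 22 hypoxia response genes, which overlap with glycolysis in their regulation, Ankrd37 (23.8 and 9.63) was the only call, and it was lost with the length trend. The median of that list was -0.26, with 18 of 22 ratios below 0, and it was -0.29 without the length trend. Respiratory chain and ATP synthase subunits, with a median exon sum of 665 nt, had a median ratio of -0.23, which became 0.00 once the length trend was removed. In that list of 72, Cox7a1 (27.1 and 6.07) and Ndufa8 (217 and 74.8) were lower by either rule. None of 23 tricarboxylic acid cycle enzymes (median -0.15, and -0.01 without the length trend) or of 24 cholesterol genes (-0.04) was called. Pnpla2, a triglyceride lipase, was the single call among 28 fatty acid genes, with 14.4 and 4.48.

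Stress defence and transport genes had a handful of lower calls. Antioxidant and glutathione genes had 3 of 31 lower and 0 higher, with a median of -0.27 that became -0.06 without the length trend. Gsta4, a glutathione transferase, had 86.0 FPKM in the WT library (82.2 to 89.7), 12.2 in SclKO (10.7 to 13.8) and 17.9 in the Gata12KO library. Gclm, of glutathione synthesis, had 19.4 and 6.51, and Mgst1 10.8 and 3.85, though Mgst1 fell short of the limit once the length trend was removed. Iron genes Heph (11.6 and 3.35) and Slc48a1 (8.07 and 2.52), a heme transporter, were lower of 13 tested. The zinc transporter Slc39a8 (8.00 and 2.61) was the call among 15 metallothionein and zinc genes, and the chaperone Dnajb9 (20.5 and 9.51) among 26 of the endoplasmic reticulum, the latter lost with the length trend. For amino acid transporters, Slc7a5 (12.1 and 35.5) and Slc38a4 (56.1 and 139) were higher and the glutamate transporter Slc1a3 (6.79 and 1.43) lower, of 17. Of 17 potassium and calcium channel genes, the potassium channel subunit Kcne3 (5.33 and 0.115) was lower and the calcium channel subunit Cacnb3 (2.24 and 6.37) higher.

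Growth and division genes held medians slightly above that of all genes and almost no call. Ribosome biogenesis factors had 0 of 35 called and a median of 0.30, mitosis and spindle genes 0 of 39 and 0.21, and DNA replication factors 0 of 40 and 0.13. Their most abundant members in WT, Npm1 (952 and 711 FPKM), Pttg1 (118 and 95.2) and Pcna (227 and 166), had smaller values in SclKO within the limit. The next most abundant, Nop10 (168 and 155), Ube2c (94.1 and 125) and Gins2 (95.6 and 101), went both ways. Summed FPKM was 2038 in WT and 1914 in SclKO for ribosome biogenesis, 1615 and 1790 for mitosis, and 1500 and 1549 for replication. For tRNA synthetases the median was 0.38, and Qars, which charges glutamine, was called higher with 24 (22.6 to 25.5) and 76.1 (73.9 to 78.4). The Gata12KO library had 64.6 FPKM of Qars. Of cytosolic ribosomal proteins only 3 could be tested, and Rpl35 (10.5 and 3.63) was lower, a gene with processed copies elsewhere. Proteasome subunits had 0 of 31 called, with a median of -0.14 that became 0.04 without the length trend. The cell cycle inhibitor Cdkn1c (61.4 and 133) was the call among 24 G1 genes, Sesn2 (1.78 and 5.64) among 25 p53 targets and the cell death gene Bik (6.31 and 0.570) among 24 apoptosis regulators. Cytosolic chaperones, lysosomal and autophagy genes, one-carbon and nucleotide enzymes and Polycomb and Trithorax genes held 0 calls. Of chromatin and RNA regulators, the DNA demethylation enzyme Tet2 (17.5 and 7.05) and the splicing regulator Mbnl1 (9.95 and 2.97) were lower.

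Replication-dependent histone genes stood apart from the rest of the cell cycle genes. Of 44 in the list, 14 were higher and 1 lower, with a median of 0.73, and once the length trend was removed 23 were higher, with a median of 1.02. When all histone genes measured were sorted by type, a grouping made after the values were seen, the types divided. Of H3 genes 9 of 12 were higher, of H2A genes 5 of 14, of linker H1 genes 3 of 5 and of H4 genes 1 of 11, with medians of 1.18, 0.90, 1.04 and 0.75 and 0 lower in each. Of 16 H2B genes 0 were higher and 4 lower, with a median of -0.35 that became -0.09 without the length trend. H3c3 had 45.2 FPKM in the WT library (40.8 to 49.6), 131 in SclKO (123 to 140) and 59.4 in the Gata12KO library. H2bc11 had 579 (560 to 599), 180 (168 to 192) and 72.6. Among H1 genes, H1f2 had 86.7 and 212. Summed by type, H2A genes had 580 FPKM in WT against 1420 in SclKO and H2B genes 1743 and 1237. These genes are short, most of their transcripts carry no poly(A) tail, and near-identical copies can split reads, so single values are uncertain. The H2A and H2B genes, which lie in pairs that share a promoter, thus had medians of opposite sign.

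**Figure D4:**
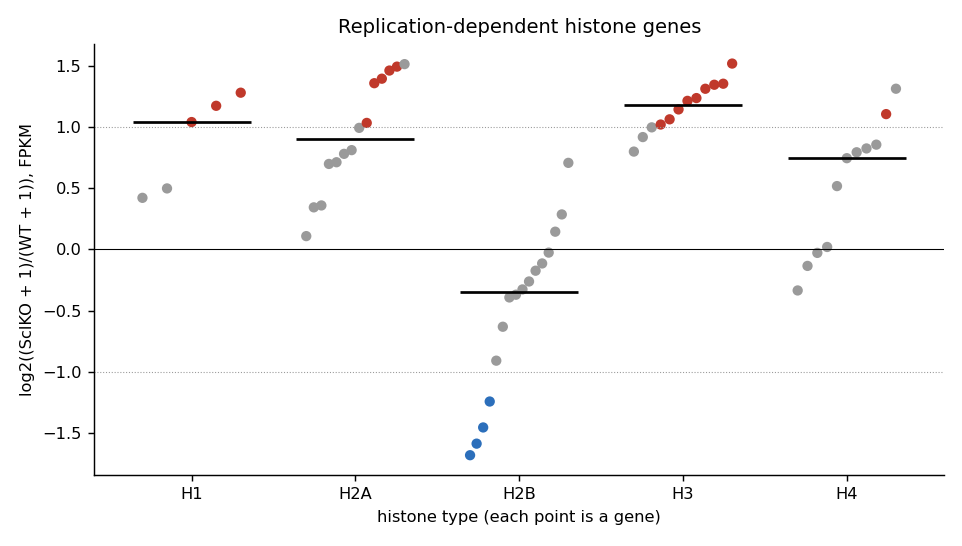
Log2 ratio of SclKO over WT for each tested histone gene by type, with black lines at the medians and dotted lines at the 2-fold limits. Red points were called higher and blue points lower, and grey points past a limit had overlapping bounds. H3 has 9 red points of 12, and H2B has 4 blue points of 16 and no red one.

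Imprinted genes, expressed from the maternal or the paternal allele alone, had 7 of 31 tested higher and 2 lower, with a median of 0.44, and of 0.39 over all 37 measured. Higher genes were Nnat, Peg3, Slc38a4 (56.1 and 139 FPKM) and Cdkn1c, and 3 noncoding RNAs of the Dlk1-Meg3 region: Meg3 (18.4 and 50.7), Rian (3.42 and 12.1) and Mirg (0.881 and 2.96). Those RNAs are maternally expressed from a shared region. The library labelled Gata12KO had 0.749 FPKM of Meg3 and 0.384 of Rian, so the region differed among all 3 libraries. Dlk1, the paternally expressed gene of the region, had 54.6 and 69.0 in WT and SclKO. Grb10 and Zim1 (2.18 and 0.107) were lower. Igf2r (41.1 and 42.5), Igf2 and Mest (732 and 1089) were not called. Among other noncoding RNAs, the telomerase RNA Terc had 1.49 and 4.44 and Epb41l4aos 239 and 113, the latter lost as a call without the length trend.

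Ratios followed transcript length across all genes. In 10 bins of equal size by exon sum, the median log2 ratio went from -0.30 in the shortest genes (312 to 1115 nt) through -0.05 in the fifth bin (2375 to 2811 nt) to 0.10 in the longest (6140 to 23495 nt). The middle of each bin was wide beside this trend, with quartiles of -0.57 and 0.00 in the shortest and -0.14 and 0.35 in the longest. Lower calls took 8.45% of the shortest bin (92 of 1089 genes) and 2.30% of the longest (25 of 1088). Higher calls took 2.66% of the shortest bin and 2.67% of the longest. Spearman's coefficient between ratio and length was 0.24 across 10874 genes, which share libraries, depth and base composition and are not independent. It was 0.26 for the 8304 genes with 1 entry, and 0.17 with the number of exons in place of length. In 4 groups of equal size by mean FPKM, from low to high, the coefficient was 0.15, 0.15, 0.24 and 0.32. The trend was thus present in each of them and steepest among the most abundant genes. Called lower genes had a median exon sum of 2230 nt, called higher genes 2845 nt and genes between the limits 2831 nt.

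**Figure D5:**
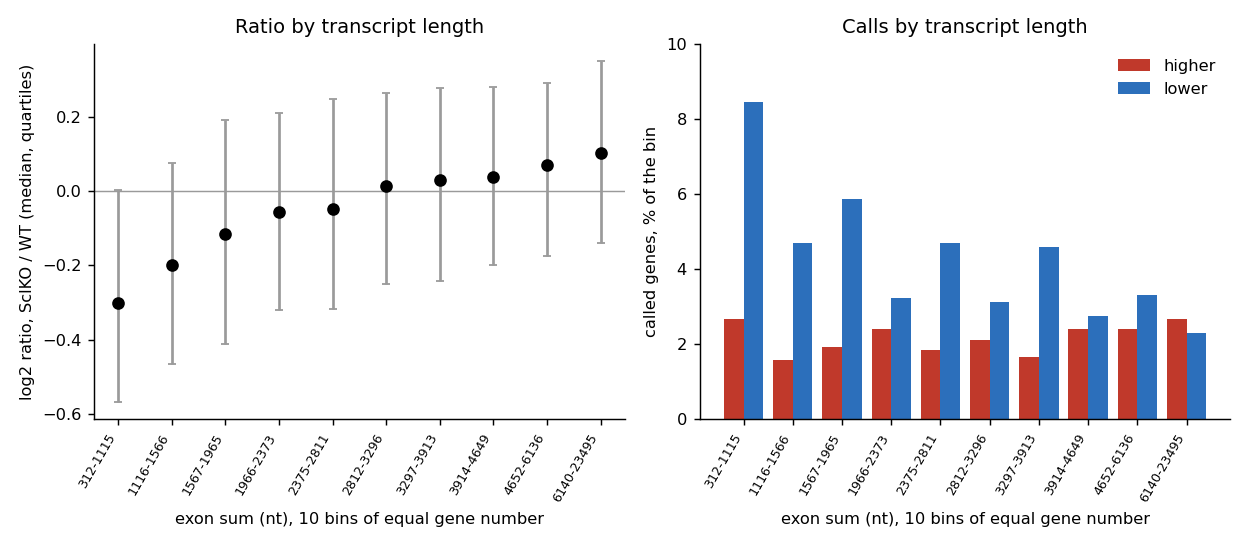
At the left, the median log2 ratio of SclKO over WT (points) with quartiles (bars) in 10 bins of equal gene number by exon sum in nt. At the right, the share of each bin called higher (red) and lower (blue), where the shortest bin has 8.45% lower and the longest 2.30%.

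With a running median over length subtracted, 283 genes were called higher (2.60%) and 420 lower (3.86%), again 6.46% in all. Of the calls before, 220 of 235 higher and 394 of 468 lower were kept, 15 and 74 were lost, and 63 higher and 26 lower genes were added. Lists of short genes moved by more, the histone median from 0.73 to 1.02 and the respiratory chain median from -0.23 to 0.00. The Wnt median moved from 0.37 to 0.40, that of proteoglycans from 0.32 to 0.31 and that of chemokines and cytokines from -0.15 to 0.00. Fragment length terms read from the bounds were 184 nt in WT and 196 nt in SclKO. With FPKM recomputed per plain exon sum, the coefficient was 0.25. The source of the trend was not tested.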

How the data were processed

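RNA was measured in 1 WT and 1 SclKO library. The authors deposited 1 file per library with 30123 RefSeq entries, each with an FPKM and its lower and upper confidence bound, per the file headers' source field written by Cufflinks. Per the submitters' processing notes the tools were TopHat2 2.0.4, Cufflinks 2.0.1 and Cuffdiff, and hg19 and mm9 the builds, with no roles stated. Coordinates fit mm9. Strand use, not given in the sources used here, leaves overlapping and antisense genes uncertain.

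Of 29610 accessions in the WT file, 29030 were named by the RefSeq table, 173 by the GENCODE table and 407 by neither. FPKM and bounds were summed over the entries of a symbol, and length is the exon sum of its longest entry. Ratios used a pseudocount of 1 FPKM (Python 3.11.15, pandas 2.3.3, numpy 2.4.6), with an FPKM minimum of 1 and an exon sum minimum of 300 nt. The length trend was removed as a running median over 501 genes. For the fit, the bounds were taken to lie 2 Poisson standard deviations from each value. A fit of a total and a length term per library placed 94.5% of entries of single-entry genes with at least 100 reads within 1% in both. Reads on entries of 300 nt or more came to 16.5M and 14.6M.

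Named genes are Tal1, the 12 highest and 12 lowest called genes with at least 5 FPKM outside the marker lists, and up to 4 called members of each list (the 2 most abundant in WT where none was called). Other members in the text were picked with their values in view. The members, gene lists and rules were chosen with earlier results of these data known. The calling rule and the trend removal were tested on simulated data. Alternatives changed the pseudocount, minimums, scale, length handling, fold limit and bounds rule. Some genes are not reported here.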

Additional observations from a re-analysis of the deposited data

How the results depend on the processing

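Higher and lower calls, 235 and 468, became 473 and 725 with a pseudocount of 0.1 FPKM, 82 and 183 with a pseudocount of 5 FPKM, and 874 and 1241 with a 1.5-fold limit. Under the 9 other settings they ranged from 176 to 351 and from 319 to 472. The share of calls that were lower stayed between 58.7% and 69.1%, with 1 exception. It was 53.1% with SclKO rescaled to the summed FPKM of WT over entries of 300 nt or more. Spearman's coefficient with length ranged from 0.21 to 0.28, except for 0.13 with no filter on low values.

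Of 157 named called genes, 67 lost the call with a pseudocount of 5 FPKM, 8 with the length trend removed, 5 and 3 under the rescalings and 2 with FPKM per plain exon sum. None lost it under the other settings among genes still tested, and no sign turned. Of 72 list medians, 16 moved by over 0.25 with no filter on low values, 9 with a pseudocount of 5 FPKM and 9 at a minimum of 5 FPKM, such as forkhead factors from 0.55 to 0.08 with no filter. Medians of at least 0.1 in size under both settings changed sign in 4 cases: chemokines and cytokines to 0.33 at a minimum of 5 FPKM, basic helix-loop-helix factors to -0.14 with genes of 1 entry, pluripotency markers to 0.14 without the length trend, and streak markers to -0.11 with no filter. The cause was not tested.

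No paired analysis was possible because each group has 1 library and the labels carry no replicate numbers. Depth limits genes of few reads, and the bounds hold no spread between replicates.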

Other observations

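Gene families outside the lists were grouped after their values were seen, so their counts describe these libraries and support nothing. All 5 tested GTPases of the immunity-associated family, known from lymphocytes and vessels, were lower in SclKO, among them Gimap4 with 26 FPKM in WT against 2.02 in SclKO and Gimap1 with 4.77 and 0.326. Of 5 tested caveolins and cavins, which shape the flask-like pits of endothelial membranes, 4 were lower: beside Cavin1, Cav1 had 5.05 and 1.67, Cav2 4.34 and 0.964 and Cavin3 3.88 and 0.769. Of 9 tested Rap1 GTPases and their exchange factors, which strengthen cell adhesion, 5 were lower, with Rap1b at 116 and 48.9, Rap1a at 68.3 and 32.4 and Rasgrp3 at 49.3 and 16.1. Rapgef1 (7.94 and 8.36), Rapgef2 (2.44 and 2.30) and Rapgef6 (6.56 and 6.11) were nearly level. Of 6 tested STAT factors, Stat5a (8.82 and 1.77) and Stat5b (15.9 and 5.30) were lower, while Stat6 had 4.06 and 6.23. Stat3, the most abundant of them in WT, had 26 and 9.92. Its ratio was past the 2-fold limit as well, but its bounds overlapped, so it was not called. Stat5 proteins act below the receptor for erythropoietin, whose gene was also lower.

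Of 14 genes of neurotransmitter synthesis and vesicle transport, 4 reached 1 FPKM in either library, and 3 of these were lower. Gad2, which makes the transmitter GABA, had 9.21 FPKM in WT against 0.0819 in SclKO, and Slc32a1, which loads GABA into vesicles, had 4.86 and was listed at 0. Slc18a2 had 23.1 and 3.18, while Ddc (3.10 and 2.01) lay between the limits. Neuroectoderm markers summed to 4.94 and 5.70 FPKM. Of 11 measured, 2 were tested and 1 had at least 1 FPKM in both libraries. Whether these markers moved with the transmitter genes was not tested. Of 16 tested tetraspanins, 5 were lower, among them Tspan13 (31.7 and 9.29), Tspan12 (34.2 and 14.8) and Tspan8 (5.59 and 0.862).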
